A study of Homo sapiens with 4 samples.

Results

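The miRNAs that mark blood cells were followed across both colon cancer cell lines and both vectors. The 6 of them are hsa-miR-144, hsa-miR-451, hsa-miR-142-3p, hsa-miR-142-5p, hsa-miR-223 and hsa-miR-150. They were chosen by name, and each name matched 1 probe, so that 6 of the 1276 human probes and of the 1422 named miRNA probes on the array were taken. HT-29 and LS174T are established human colon adenocarcinoma lines. Cells of each line had been stably transfected either with a pGenesil-1.1 plasmid that carries EGFP and a short hairpin RNA against Ascl2 (shRNA-Ascl2), or with the same plasmid without an insert (shRNA-Ctr). Ascl2 is a basic helix-loop-helix transcription factor of intestinal stem cells. The transfectants were kept in G418 at 0.4 mg/ml for HT-29 and 0.2 mg/ml for LS174T, both in medium with fetal bovine serum. Independent stable clones had been established, and which of them gave each RNA is not given in the sources used here. Total RNA of each of the 4 conditions was hybridised to 1 Exiqon miRNA array of the 6th generation. Ascl2 is an mRNA, so these arrays hold no check of its knockdown. Since there was 1 array per condition, a ratio between arrays has no replicate check and carries no p value. The ± values below are SDs over the 4 spots of a probe on 1 array and measure technical spread only.

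In blood, miR-144 and miR-451 are made from 1 cluster that is switched on by GATA1 in erythroid cells, and miR-451 is among the most abundant miRNAs of the red cell. Both arms of the miR-142 hairpin are found in nearly all haematopoietic lineages. miR-223 is a miRNA of granulocytes and their myeloid precursors, and miR-150 is a miRNA of mature B and T lymphocytes, where it represses MYB. An epithelial line holds no blood cells, and its own miRNAs are those of the miR-200 family, which represses ZEB1 and ZEB2, and, in the intestinal epithelium, miR-192, miR-215 and miR-194.

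RefSeq (GRCh38.p14) held the mature sequences of 4 of the 6 miRNAs, which are shown because the arms and seeds set them apart from other miRNAs. They are written 5′ to 3′ with the seed (bases 2 to 8), which pairs with target mRNAs, in capitals.
miR-144 (miR-144-3p), chr17:28861548-28861567, minus strand: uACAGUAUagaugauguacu
miR-142-3p, chr17:58331245-58331267, minus strand: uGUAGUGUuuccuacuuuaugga
miR-142-5p, chr17:58331283-58331303, minus strand: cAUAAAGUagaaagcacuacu
miR-223 (miR-223-3p), chrX:66018937-66018958, plus strand: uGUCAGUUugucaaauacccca
The 4 seeds differed from each other. Among 2369 other human mature miRNAs, the seed of miR-142-5p was shared by 1, miR-5590-3p, and those of the other 3 by 0. The mature miRNAs nearest in sequence lay at an edit distance of 7 for miR-144 and miR-142-3p, and of 8 for miR-142-5p and miR-223. Each of the 4 shared bases 2 to 7 with 1 other miRNA. These were miR-101-3p for miR-144, miR-6073 for miR-142-3p, miR-5590-3p for miR-142-5p and miR-4697-3p for miR-223. The MIR142 hairpin is shown because both of its arms have a probe, with the 5p arm first and the 3p arm second, both in capitals.
MIR142, chr17:58331232-58331318, minus strand: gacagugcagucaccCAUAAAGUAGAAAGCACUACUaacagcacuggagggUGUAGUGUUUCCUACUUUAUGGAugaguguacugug
In the order of RefSeq genes on chromosome 17, MIR144 stood beside MIR451B, MIR451A and MIR4732.

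Intensities below are foreground minus background, averaged over the spots of a probe. Each array was scaled to a common median over the 471 named miRNA probes that were above 50 on all 4 arrays. A probe was tested if its brighter array exceeded 50, and was called at a ratio of at least 2 or at most 0.5. Where the dimmer array lay below 50, it was raised to 50 for the fold given, which is then written as a bound. The 99th percentile of the 1108 empty positions of an array was between 14.3 and 22.2. Probes against viral miRNAs, which uninfected cells do not make, showed more signal: 29.5 to 38.4% of the 146 were above 50 per array. The limit of 50 therefore lies above the empty slide but within the range of viral probes.

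The shRNA-Ctr/LS174T array stood apart from the other 3, and it enters 2 of the 4 comparisons. Synthetic spike-in controls were lower on it. Their median ratio was 9.22 for shRNA-Ascl2/LS174T over shRNA-Ctr/LS174T, against 1.01 between the HT-29 arrays. The summed intensity of 8 epithelial miRNAs was 23355 on it and 169485 to 185353 on the others. miR-192 measured 295 there and 8953 in shRNA-Ascl2/LS174T. miR-200a measured 3766 and 34608, with spots from 82.3 to 7747 on the shRNA-Ctr/LS174T array. miR-215 was dim throughout, at 55.5 in shRNA-Ascl2/LS174T, 20.8 in shRNA-Ctr/LS174T and at most 15.2 in HT-29. All 8 epithelial miRNAs were called higher in shRNA-Ascl2/LS174T than in shRNA-Ctr/LS174T, as were 29.5% of 624 human probes, and 0 of the 7 tested were called in HT-29, where 12.5% of 561 human probes were called. The epithelial difference was present before any scaling. Scaling on the miRNAs could change it little, as the medians used were 327.75 for shRNA-Ascl2/LS174T and 341.75 for shRNA-Ctr/LS174T. The unscaled means in shRNA-Ascl2/LS174T and shRNA-Ctr/LS174T were 8139 and 279 for miR-192, and 49045 and 8575 for miR-141. With scaling on the spike-in controls, chosen for this list after its values were seen, 1 of the 8 was called up and 1 down in LS174T, and the summed intensity was 96283 in shRNA-Ascl2/LS174T and 114612 in shRNA-Ctr/LS174T. Of 5 stromal and endothelial miRNAs, 2 were above 50 on it, with a summed intensity of 185 against 110 to 167 on the others, and miR-145 was at 2.11. In bulk RNA, fewer cells of a type and less RNA per cell cannot be told apart. With 1 array per condition the clone, the RNA and the array cannot be told apart either.

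Of the 6 blood cell miRNAs, 6 were above 50 on the shRNA-Ctr/LS174T array and 3 on each of the other arrays. Of all human probes 44.0% were above 50 on that array and 40.8 to 42.5% on the others. For viral probes the shares were 38.4% and 29.5 to 31.5%. miR-142-3p and miR-150 were above 50 on all 4 arrays, as were 34.1% of human probes. miR-144 and miR-223 were above 50 on the shRNA-Ctr/LS174T array alone. This held for 3.84% of human probes (49) and for 5.48% of viral probes (8), whereas 5, 10 and 20 human probes were above 50 on only 1 of the other arrays. Without background subtraction all 6 were above 50 on every array. The median background of an array was itself 50 to 65, so that count is no measure of detection.

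**Figure D1:**
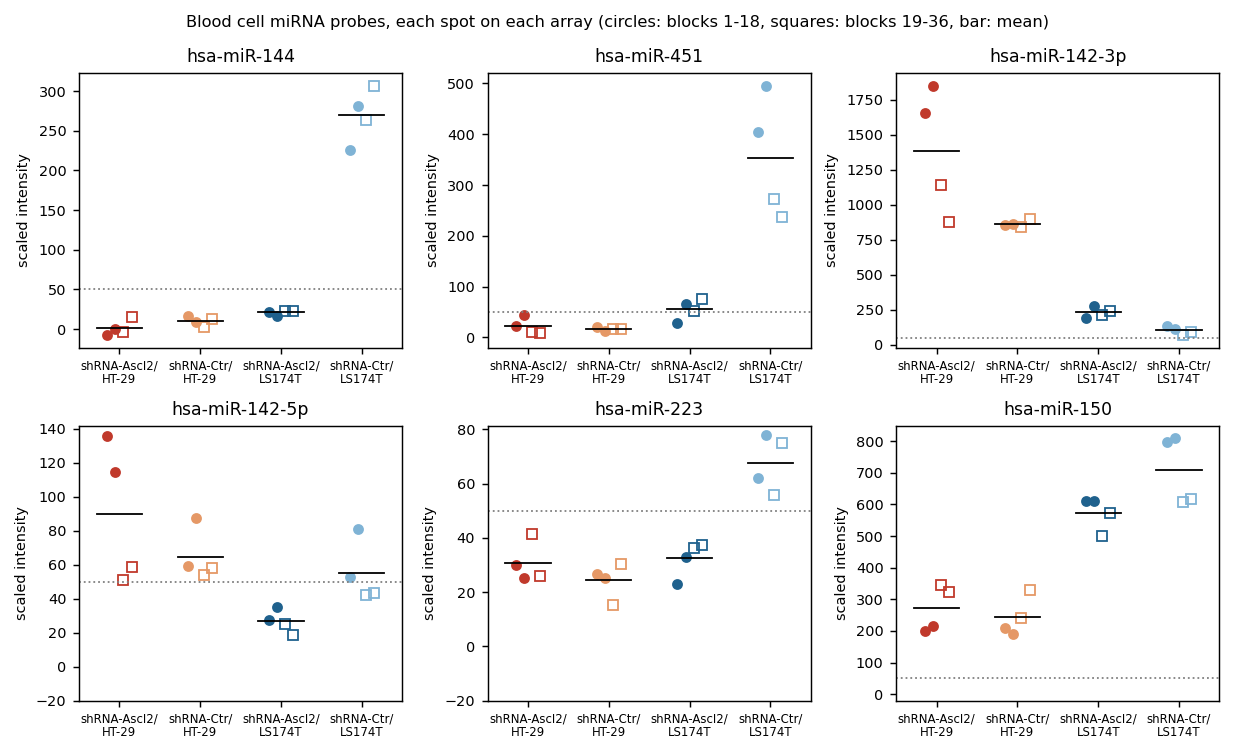
Scaled intensity of every spot of the 6 probes (y axis, linear, 1 panel per miRNA) on the 4 arrays (x axis). Circles are spots in blocks 1 to 18, squares are spots in blocks 19 to 36, bars are means and the dotted line is 50. For miR-144 the 4 spots of shRNA-Ctr/LS174T, from 226 to 307, lie above all spots of the other arrays.

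Of the erythroid pair, miR-144 was near the empty slide on 3 arrays. Its intensity was 0.963 ± 10.1 with shRNA-Ascl2 and 10.3 ± 6.05 with shRNA-Ctr in HT-29, and 20.9 ± 3.11 with shRNA-Ascl2 and 270 ± 34.2 with shRNA-Ctr in LS174T. The 4 spots of the shRNA-Ctr/LS174T array overlapped with none elsewhere. In both HT-29 arrays the mean lay below the 99th percentile of empty positions, so miR-144 was not detectable there. On the shRNA-Ctr/LS174T array it ranked 247th of 1276 human probes, and 15.1% of viral probes were as bright or brighter.

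miR-451 had the same order of arrays, except that the HT-29 arrays changed places. It measured 21.9 ± 15.9 with shRNA-Ascl2 and 16.3 ± 2.57 with shRNA-Ctr in HT-29, and 55.0 ± 20.0 with shRNA-Ascl2 and 352 ± 120 with shRNA-Ctr in LS174T. The spots of the shRNA-Ctr/LS174T array ran from 236 to 496 and lay above those of every other array. The HT-29 arrays did not differ beyond their spots, and the mean in shRNA-Ascl2/LS174T was close to the limit of 50. Among viral probes, 14.4% reached the miR-451 intensity on the shRNA-Ctr/LS174T array.

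The opposite arm of the miR-144 hairpin, miR-144*, was below 50 on all 4 arrays and at -24.8 ± 14.4 on the shRNA-Ctr/LS174T array. It is usually the less abundant arm. miR-486-5p, which is also abundant in red cells, was likewise brightest there, at 210 ± 28.7, against 117 and 77.2 in HT-29 with shRNA-Ascl2 and shRNA-Ctr and 63.0 in LS174T with shRNA-Ascl2. Its other arm, miR-486-3p, was at 12.03 to 18.1 on all 4 arrays.

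miR-142-3p, from the pan-haematopoietic hairpin, was brighter in HT-29 than in LS174T. It measured 1383 ± 450 with shRNA-Ascl2 and 864 ± 25.05 with shRNA-Ctr in HT-29, and 231 ± 38.3 with shRNA-Ascl2 and 103 ± 26.6 with shRNA-Ctr in LS174T. The lowest HT-29 spot, 841, was above the highest LS174T spot, 278. It ranked 116th and 157th among human probes on the HT-29 arrays and 297th and 405th on the LS174T arrays, in the order given. Of the viral probes, 2.05% and 5.48% were as bright or brighter in HT-29, and 11.6% and 26.0% in LS174T.

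miR-142-5p, the opposite arm of the same hairpin, stayed close to the limit. It measured 90.0 ± 41.6 with shRNA-Ascl2 and 64.7 ± 15.5 with shRNA-Ctr in HT-29, and 26.7 ± 6.80 with shRNA-Ascl2 and 54.9 ± 18.2 with shRNA-Ctr in LS174T. The spots of shRNA-Ascl2/LS174T, at most 35.2, lay below those of the other arrays, which overlapped with each other. The arms come from different probes, so their intensities were not set against each other.

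The myeloid miR-223 was below 50 on 3 arrays. It measured 30.6 ± 7.51 with shRNA-Ascl2 and 24.4 ± 6.51 with shRNA-Ctr in HT-29, and 32.4 ± 6.51 with shRNA-Ascl2 and 67.8 ± 10.5 with shRNA-Ctr in LS174T. Only the shRNA-Ctr/LS174T spots, from 55.9 to 78.1, stood clear of the others. On that array 33.6% of viral probes were as bright or brighter. Its opposite arm, miR-223*, was below 50 on all 4 arrays.

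The lymphocyte miRNA miR-150 was above 50 everywhere and brighter in LS174T. It measured 271 ± 73.2 with shRNA-Ascl2 and 243 ± 61.6 with shRNA-Ctr in HT-29, and 574 ± 52.6 with shRNA-Ascl2 and 708 ± 110 with shRNA-Ctr in LS174T. The spots of both HT-29 arrays, at most 346, lay below those of both LS174T arrays, at least 499, and the vectors overlapped within each line. The share of viral probes as bright or brighter was 10.3, 11.6, 8.22 and 8.22% in that order. miR-150* was at or below 1.65 on every array.

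**Figure D2:**
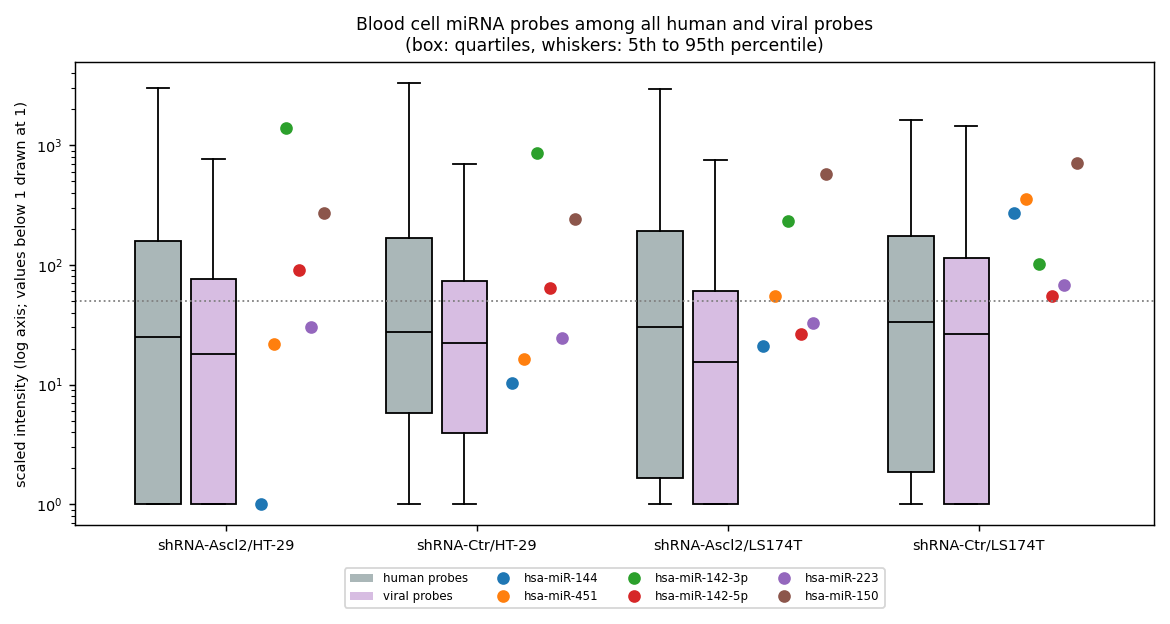
Scaled intensity (y axis, log scale, values below 1 drawn at 1) of the 6 miRNAs (coloured points) on each array (x axis), beside boxes of all human and all viral probes (quartiles, whiskers from the 5th to the 95th percentile). miR-142-3p lies above the whisker of the viral probes on both HT-29 arrays, and all 6 points are above the dotted line at 50 on the shRNA-Ctr/LS174T array alone.

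The first comparison asked whether knockdown of Ascl2 went with a change of these miRNAs in HT-29, and no blood cell miRNA was called. In HT-29, 3 of the 6 had an array above 50, and 0 of these 3 were called, where 12.5% of 561 human probes were called in either direction. In HT-29 the ratio of shRNA-Ascl2 over shRNA-Ctr was 1.60 for miR-142-3p, 1.39 for miR-142-5p and 1.12 for miR-150, and the spots of the 2 arrays overlapped for all 3. For miR-150 the direction was not stable, with 0.900 from blocks 1 to 18 and 0.916 with the landmark correction. The median of the 6 log2 ratios with the limit of 50 applied was 0.08, against -0.02 over the 561 human probes tested. miR-144, miR-451 and miR-223 were below 50 on both arrays and were not compared.

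The position of a spot moved the miR-142-3p ratio in HT-29. The spots in blocks 1 to 18 gave 1.77 and those in blocks 19 to 36 gave 1.37. Landmark spike-in controls lie in every block. The ratio of their signal between these block ranges, the later over the earlier, was 0.582 for shRNA-Ascl2 and 1.27 for shRNA-Ctr in HT-29. With each spot divided by the landmark signal of its block the ratio was 1.29.

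In LS174T the erythroid pair was lower with shRNA-Ascl2 and miR-142-3p was higher. All 6 blood cell miRNAs were tested there, and 1 was called up and 4 down, where 29.5% of 624 human probes were called up and 22.8% down. Of 57 viral probes tested in LS174T, 2 were called up and 29 down, against 4 up and 4 down of 51 in HT-29. Calls down were thus also frequent among probes without a target in these cells. The median of the 6 log2 ratios was -0.37, against -0.12 over the human probes tested.

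miR-451 was 6.41-fold lower in shRNA-Ascl2/LS174T than in shRNA-Ctr/LS174T, and miR-144 was at least 5.39-fold lower. Ordered by ratio with the limit of 50 applied, they held ranks 2 and 3 from the lowest of the 624 human probes. Both were called down under all 12 alternative ways of processing the intensities. The 12 are not all distinct, since the authors' scaled table and the use of spot medians gave the same ratios. miR-142-3p was 2.25-fold higher in shRNA-Ascl2/LS174T, with no overlap of spots. It was called up in 8 of the 12 alternatives, while scaling on the spike-in controls in place of the miRNAs turned its ratio to 0.249.

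With scaling on the miRNAs the remaining calls in LS174T were close to the limit. miR-142-5p had a ratio of 0.486 and miR-223 of 0.479, which the limit of 50 reduces to at least 1.10-fold and 1.36-fold lower, and they were called down in 5 and 9 of the 12 alternatives. miR-150 had a ratio of 0.810 and was not called, and its spots overlapped. With spike-in scaling these 3 were lower in shRNA-Ascl2/LS174T, miR-142-5p by at least 5.38-fold, miR-223 by at least 6.65-fold and miR-150 by 11.2-fold. All 6 blood cell miRNAs were then called down. That scaling lowers every ratio of this comparison, and the share of human probes called under it was not counted. The count of 6 is therefore not read as particular to these miRNAs. With scaling on the miRNAs the summed intensity of the 8 epithelial miRNAs was higher in shRNA-Ascl2/LS174T, at 177343, against 23355 in shRNA-Ctr/LS174T. The part of that array in the calls was not tested.

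**Figure D3:**
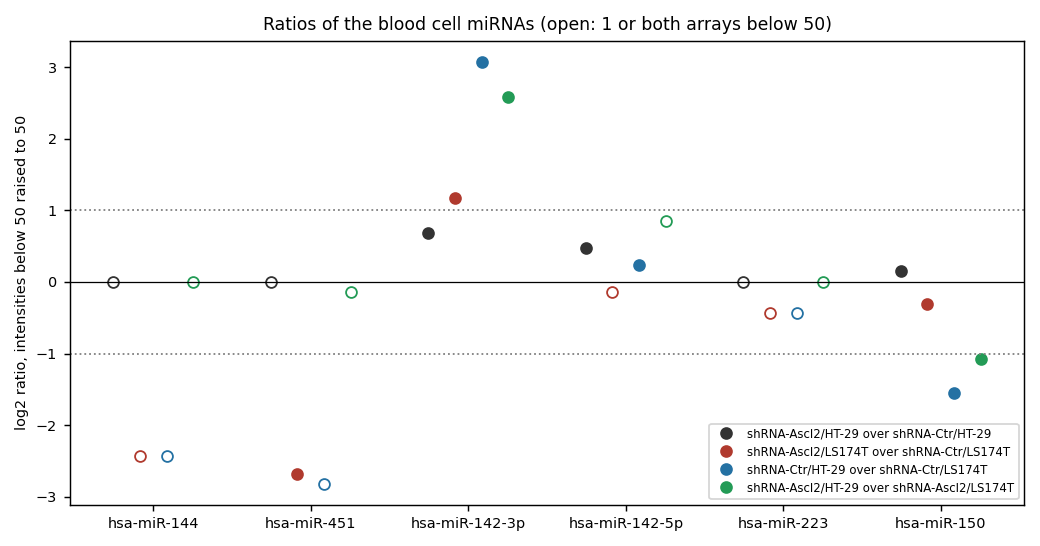
Log2 ratio of each blood cell miRNA (y axis, intensities below 50 raised to 50) in the 4 comparisons (colours), with open circles where 1 or both arrays were below 50 and dotted lines at 2-fold. miR-144 and miR-451 are below the lower line in both comparisons that use the shRNA-Ctr/LS174T array, and miR-142-3p is above the upper line in both comparisons between the lines.

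The lines were then compared at the same vector. Between the shRNA-Ascl2 arrays, which leave out shRNA-Ctr/LS174T, 4 blood cell miRNAs were tested, and 2 were called higher in HT-29 and 2 lower, where 10.3% of 591 human probes were called higher and 18.3% lower. miR-142-3p was 5.98-fold higher in shRNA-Ascl2/HT-29 than in shRNA-Ascl2/LS174T, with no overlap of spots. Over 12 alternatives this ratio ran from 4.73 to 7.35 and was called in all 12. miR-142-5p was at least 1.80-fold higher in HT-29, so that both arms of the hairpin were called in the same direction.

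miR-150 was 2.12-fold lower in shRNA-Ascl2/HT-29 than in shRNA-Ascl2/LS174T. It was close to the threshold and was called in 5 of 12 alternatives, with a ratio of 0.329 from blocks 1 to 18 and of 0.757 from blocks 19 to 36. miR-451 had a ratio of 0.398, but its spots overlapped and the limit of 50 leaves at least 1.10-fold. miR-144 and miR-223 were below 50 on both shRNA-Ascl2 arrays.

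Between the shRNA-Ctr arrays all 6 were tested, and 1 was called higher in HT-29 and 4 lower, where 29.7% of 627 human probes were called higher and 30.8% lower. Of 60 viral probes tested here, 2 were called higher in HT-29 and 28 lower. miR-142-3p was 8.42-fold higher in shRNA-Ctr/HT-29, but with scaling on the spike-in controls its ratio was 0.966. miR-150 was 2.92-fold lower in HT-29. miR-144 was at least 5.39-fold lower in HT-29 and miR-451 at least 7.05-fold lower. miR-223 was at least 1.36-fold lower, and miR-142-5p was not called, with a ratio of 1.18. With spike-in scaling miR-142-5p was at least 5.38-fold lower in shRNA-Ctr/HT-29 and was called, miR-223 was at least 6.65-fold lower and miR-150 was 25.4-fold lower. The median of the 6 log2 ratios was -0.99, against -0.30 over the human probes tested. This comparison shares the shRNA-Ctr/LS174T array with that of the vectors in LS174T.

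A fit over all 4 arrays (limma, log2 intensities, 654 human probes, 1 residual degree of freedom) gave the effects common to both lines or both vectors. No probe passed an adjusted p of 0.05 for either effect, and at an unadjusted p under 0.05 there were 0 probes for the vector and 34 for the line. In limma's line effect, miR-142-3p was higher in HT-29 by 2.83 on the log2 scale (SE 0.469, adjusted p = 0.647), and higher on both HT-29 arrays than on both LS174T arrays. miR-150 differed by -1.31 (SE 0.466, adjusted p = 0.818). For the vector, the adjusted p of miR-144, miR-451 and miR-142-3p was 0.993.

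Profiles over the 4 arrays were compared by the distance between centred log2 intensities, over the same 654 probes, as a description of 4 points that share their arrays. Values below 50 were raised to 50, so the profiles of miR-144 and miR-223, which lay below it on 3 arrays, are flat there by construction. That of miR-451 is nearly so, as it was raised to 50 on both HT-29 arrays and measured 55.0 in shRNA-Ascl2/LS174T. Its likeness to miR-144 therefore comes largely from the limit and the shRNA-Ctr/LS174T array. The nearest profiles to miR-144 were those of let-7c (distance 0.238) and miR-451 (0.316), and the nearest to miR-451 was that of miR-144. let-7c measured 639, 743, 679 and 3197 in the order of arrays used above, highest on shRNA-Ctr/LS174T. miR-142-3p was nearest to let-7i (0.645), which measured 9384, 10905, 2361 and 952. The nearest profile to miR-142-5p was that of miR-576-5p (0.151) and to miR-150 that of miR-138-2* (0.139). For miR-223, the nearest probes were those that were likewise above 50 only on the shRNA-Ctr/LS174T array, and no likeness is read from them.

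Other miRNAs known from blood cells did not share 1 pattern. Of 8 with a probe, 3 or 4 were above 50 per array. None of the 3 tested was called in HT-29 (12.5% of human probes were), while 3 of 4 were called up and 1 down in LS174T (29.5% and 22.8% of human probes). miR-155, a miRNA of activated lymphocytes and macrophages, measured 315, 179, 1398 and 82.8 in the same order, which made it 16.9-fold higher in shRNA-Ascl2/LS174T than in shRNA-Ctr/LS174T. miR-181a, which is found in lymphoid precursors and many other tissues, was 2.62-fold higher there, but its spots on the shRNA-Ctr/LS174T array ran from 116 to 1905. miR-146a, a target of NF-kappaB signalling, was above 50 in shRNA-Ascl2/LS174T only, at 97.3 ± 39.7. miR-486-5p had a ratio of 0.300, the opposite direction to these 3. These ratios rest on scaling on the miRNAs. They were not computed with spike-in scaling, which turned miR-142-3p in LS174T from 2.25 to 0.249.

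**Figure D4:**
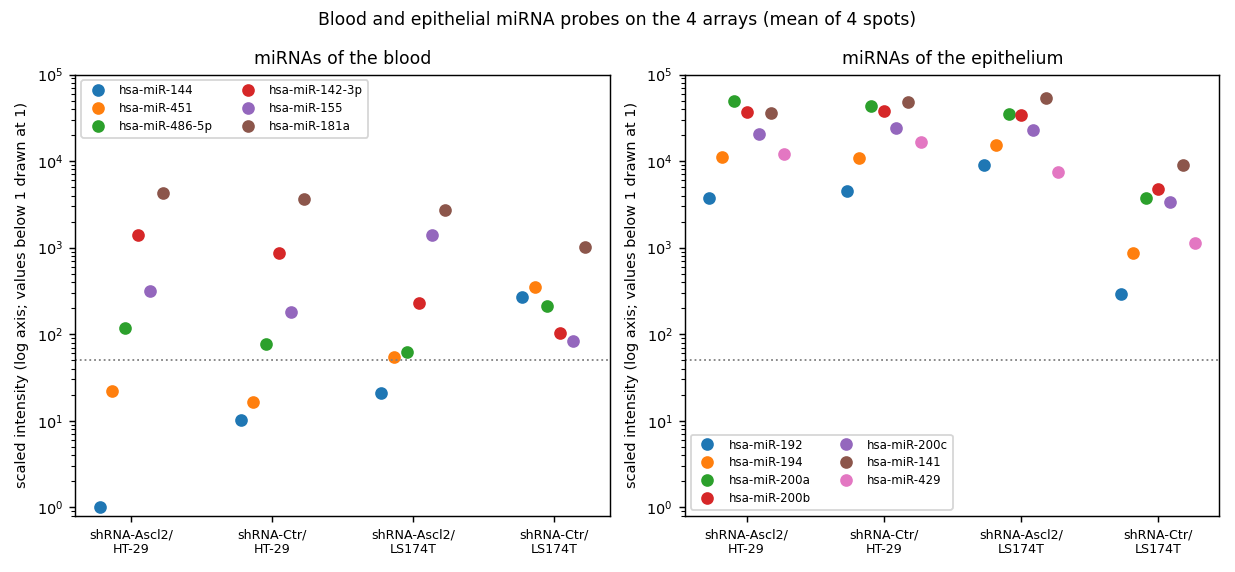
Scaled intensity (y axis, log scale, values below 1 drawn at 1) of 6 miRNAs of the blood and 7 of the epithelium on the 4 arrays (x axis), each point the mean of 4 spots and the dotted line at 50. On the shRNA-Ctr/LS174T array miR-144, miR-451 and miR-486-5p are at their highest. The other 3 blood miRNAs drawn, miR-142-3p, miR-155 and miR-181a, are at their lowest there, as are the 7 epithelial miRNAs drawn. miR-215, which is not drawn, was not at its lowest there.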

How the data were processed

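Total RNA of 4 stable transfectants was labelled with Hy3 and hybridised to 1-colour Exiqon arrays, 1 per condition. The authors extracted the scanned images with GenePix Pro. The deposited scanner tables give a linear intensity for every spot, negative in places once background is subtracted. In a second table deposited by the authors, probe medians were divided by array factors of 378, 398, 330.5 and 335, which served as an alternative. The authors' lists of fold changes were not used, nor were 24 further columns in them.

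Spot values were averaged per probe. Scaling used array medians over 471 probes (374.5, 402.75, 327.75 and 341.75) and their geometric mean of 360.5. The arrays give no counts, and their number limits the precision. The line and vector effects were fitted with limma 3.58.1 in R 4.3.3, with intensities below 50 raised to 50. The calling and the fit were tested on simulated data with independent noise. No simulated array stood apart as shRNA-Ctr/LS174T did, so the test does not cover that case. Named miRNAs are the 6 members, the listed blood, epithelial and stromal miRNAs and the 3 nearest profiles to each member, of which the text gives some. The members and the lists were chosen with earlier results of these data known. Alternatives changed the scaling, background, spots, limit and fold threshold.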

Additional observations from a re-analysis of the deposited data

Results flagged for a closer look

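miR-142-5p moved in opposite directions in the lines, with a ratio of shRNA-Ascl2 over shRNA-Ctr of 1.39 in HT-29 and 0.486 in LS174T. miR-150 did so too, at 1.12 in HT-29 and 0.810 in LS174T. Neither difference was tested, since there is 1 array per condition, and the spots of the 2 arrays overlapped for both miRNAs in HT-29 and for miR-150 in LS174T. The direction of miR-150 in HT-29 turned in 2 alternatives, to 0.900 from blocks 1 to 18 and 0.916 with the landmark correction. The spike-in controls, which lie outside the miRNA measurement and entered only alternative scalings, had a median ratio of 9.22 in LS174T, shRNA-Ascl2 over shRNA-Ctr, with 39 of 42 past 2-fold.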

How the results depend on the processing

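All values rest on 1 array per condition. Intensities under 50 could not be told from unspecific signal, and unspecific signal also reached above 50, where 29.5 to 38.4% of viral probes lay per array. No paired analysis was possible because the labels give no replicate numbers and each condition has 1 array, so that the limma fit with cell line as a block is the only blocked test. No array could be left out, as each is a whole condition. With no background subtraction and with normexp, 6 miRNAs exceeded 50 on both HT-29 arrays and on shRNA-Ascl2/LS174T in place of 3. Background was 50 to 65 per array, and normexp was run with an added offset of 50. In shRNA-Ascl2/HT-29 miR-144 thus reached 61.3 unsubtracted and 98.8 with normexp, against 0.963. These 2 settings therefore do not test detection at the limit of 50. With a limit of 25 there were 5 on the shRNA-Ascl2/LS174T array. The number called in HT-29 was 1 in place of 0 at a threshold of 1.5-fold. In LS174T it was 2 in place of 5 at 3-fold and with normexp, and 3 with a limit of 100, with no background subtraction and with quantile normalization. Between the shRNA-Ctr arrays it was 3 in place of 5 at 3-fold and with no background subtraction. Between the shRNA-Ascl2 arrays it was 2 in place of 4 at 3-fold, with a limit of 100, with no background subtraction, without scaling and with spike-in scaling, and 1 with normexp. With spike-in scaling the log2 ratio of miR-142-3p turned to -2.003 in LS174T and to -0.050 between the shRNA-Ctr arrays. The causes were not tested. Of 288 ratios of single miRNAs under the 12 alternatives that change intensities, 264 moved by less than the spread between spots. This count includes miRNAs below 50 on both arrays, whose log2 ratio the limit holds at 0 while they stay below it. For miR-144 in HT-29 the spread was 15.2 on the log2 scale, so that no move could exceed it. The count is therefore no measure of stability for such ratios. With the limit of 50 applied, 7 of the 288 turned in sign. Besides the 2 of miR-142-3p, these were ratios not called in the main processing, of miR-142-5p between the shRNA-Ctr arrays, at -0.04 with 75th percentile scaling, -2.43 with spike-in scaling and -0.0048 with the landmark correction on the log2 scale, and of miR-150 in HT-29, at -0.15 from blocks 1 to 18 and -0.13 with the landmark correction.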
